A study of Arabidopsis thaliana with 4 samples.

Results

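The autonomous pathway genes of Arabidopsis thaliana were followed across the 4 libraries of a study on suppressors of the atprmt5 mutant. The 8 genes were set by a list of loci, chosen with earlier results of these data known: FLK (AT3G04610), FCA (AT4G16280), FPA (AT2G43410), FVE (AT2G19520), FLD (AT3G10390), FY (AT5G13480), LD (AT4G02560) and REF6 (AT3G48430). All 8 were among the 24288 loci of the deposited table of RPKM (reads divided by the length of the locus in kilobases and by the size of the library). RNA came from seedlings of ecotype Columbia aged 12 days, kept at 23 °C under days of 16 h light and 8 h dark on MS medium holding 3% sucrose. There was 1 library each of line m90, line s215, the atprmt5 mutant (a mutant of the arginine methyltransferase gene PRMT5) and wild type. The labels used here name neither the gene altered in m90 or s215 nor say whether these lines carry the atprmt5 mutation, and they do not state how many plants went into a library. With 1 library per genotype there was no replicate check, no test between genotypes and no p-value, and every difference below is one between libraries.

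The autonomous pathway promotes flowering by keeping the RNA level of FLC low, FLC being the MADS-box repressor that delays the floral transition. Mutants of these genes flower late under long and short days alike and recover after prolonged cold. Its members act on RNA (FLK, FCA, FPA, FY) or on chromatin (FVE, FLD, REF6), and LD is a homeodomain protein. In Arabidopsis, loss of PRMT5, which dimethylates arginines of Sm proteins and histones, also delays flowering and raises FLC, and FLK is known as one of the transcripts whose splicing needs PRMT5.

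The first bases of an intron, its donor site, pair with small nuclear RNAs of the spliceosome. The donor sites of FLK are shown because FLK is the member whose level differed most between atprmt5 and wild type, and 1 site each of FCA and FPA because these were the members at least 2-fold higher in s215 than in atprmt5. Each window holds the last 10 exon bases and the first 20 intron bases, read from the TAIR10.1 RefSeq genome on the minus strand, with the first 6 intron bases in capitals.
FLK intron 1, chr3:1254749-1254778: ctgataccacGTAATTtcactgggttatct
FLK intron 2, chr3:1253554-1253583: agaaagagctGTGAGTctctaaatcctttt
FLK intron 3, chr3:1252137-1252166: cttggatcagGTTCCTtctcttcacaattt
FLK intron 4, chr3:1251701-1251730: tgaaaatcagGTTATCttttgttccgttgt
FLK intron 5, chr3:1251345-1251374: ggtcgctcagGTATTCcgccaatctctgca
FLK intron 6, chr3:1251030-1251059: gcttattcagGTACCCctatattctcacac
FCA intron 3, chr4:9213567-9213596: cagcagcaagGTATGTcaatctccatttta
FPA intron 1, chr2:18030700-18030729: cgcacgaccgGTTTGTtcttatctatatct

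None of the 6 FLK introns opened with GTAAG, the start of the plant donor consensus, read on the transcribed strand at the start of the intron only. Over the transcript with the longest coding sequence of each member, 10 of 87 introns (11.5%) opened with GTAAG, against 17% of 97829 introns of all tested loci, and 6 opened with GTAAGT, which is contained in the first count. Among the members FY held 4 GTAAG introns of 18, the most of any, and FLD had none of 4. Beside the share of 17%, a count of 0 among 6 introns is no result about FLK. FLK introns 3, 4, 5 and 6 opened with 6-letter starts that were shared by 0.148%, 0.0746%, 0.538% and 0.126% of all those introns. The starts of FLK introns 1 and 2 were shared by 2.69% and 4.24%. Rare starts were not confined to FLK, since FCA intron 20 (0.00204%), FY intron 18 (0.0204%), LD intron 7 (0.0245%), FCA intron 16 (0.0296%) and FVE intron 1 (0.0307%) had rarer ones. The start of FCA intron 20, GGTTCA, does not begin with GT. In that transcript the exon before it ends at base 7818 of the gene, and in another annotated FCA transcript at base 7819. These are letters in the reference, and neither the use nor the retention of an intron was measured, since the table has 1 value per locus and library.

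The gene models differ between members in ways that bear on a single value per locus. FLK lies on chromosome 3 (1250553 to 1254984, minus strand) with 4 annotated transcripts, and its 486-base intron 1 is kept in 2 of them. FCA lies on chromosome 4 (9206597 to 9214981, minus strand), and its intron 3, of 2075 bases, is kept in 1 of the 4 transcripts. Intron 3 of FCA is known from Arabidopsis as the place where FCA protein promotes early polyadenylation of its own transcript. FPA lies on chromosome 2 (18025247 to 18031255, minus strand) with 6 transcripts. In 1 of them the first exon runs on to base 1687 of the gene, far into the 1371-base intron 1, and is joined to the exon starting at base 1908. None of the 6 ends within intron 1, where FPA protein is known to direct early polyadenylation of its own RNA. The length behind each RPKM, worked out from the values, was 2058 bases for FLK, 5182 for FCA and 3811 for FPA. That of FCA was longer than any single annotated transcript, the longest having 4888 bases, and the transcript with the longest coding sequence has 3106. Reads of spliced and of intron-containing FCA or FPA RNA therefore cannot be told apart here.

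**Figure D1:**
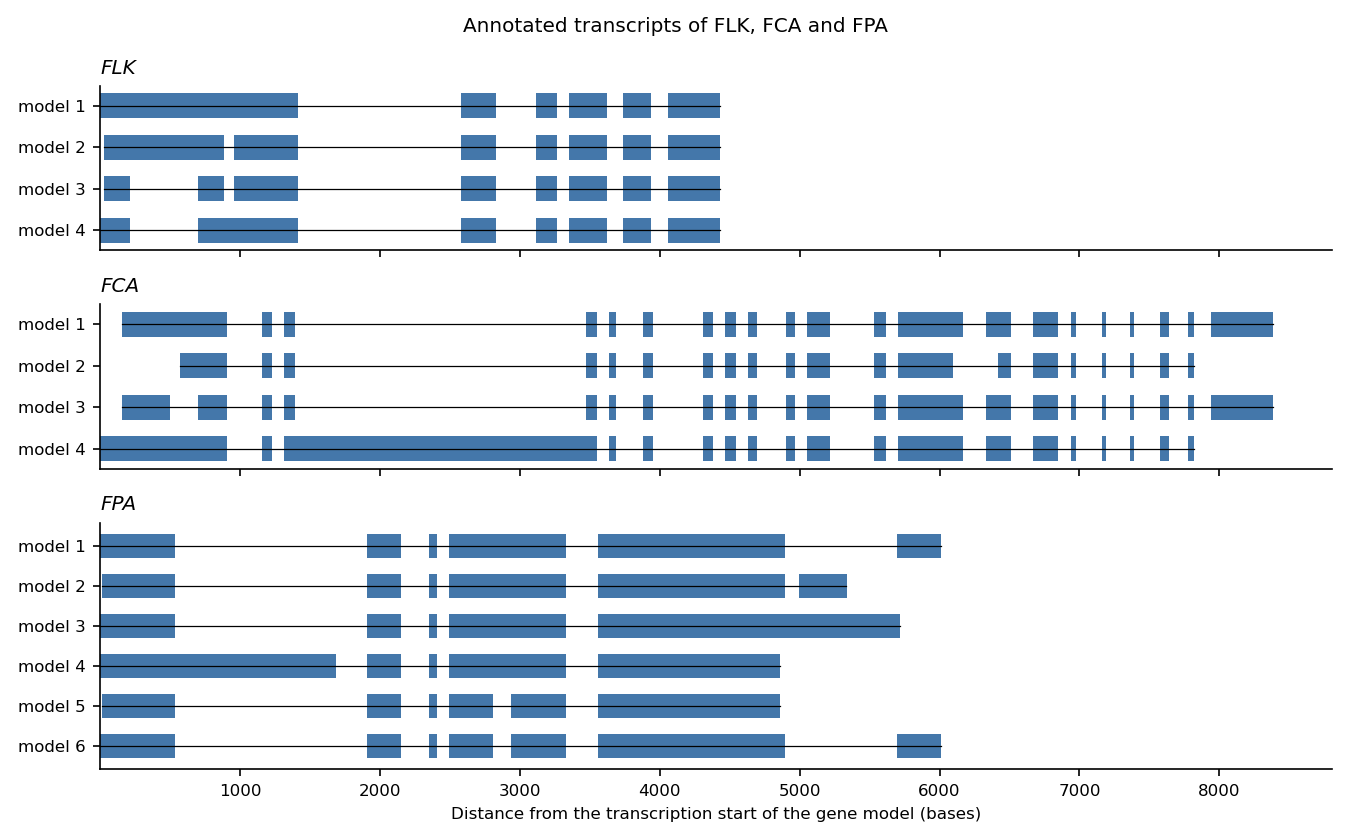
Annotated RefSeq transcripts of FLK (4), FCA (4) and FPA (6), 1 per row, with exons as bars, introns as lines and the x axis giving distance in bases from the 5′ end of the gene. The long bar in the last FCA model covers the 2075-base intron 3, and the first 2 FLK models cover the 486-base intron 1.

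The libraries were similar in size but not in make-up. Scaling totals lay between 17350612 and 17901204 reads. PRMT5 stood at 0.974 RPKM in m90, 1.70 in s215 and 1.25 in atprmt5, against 5.94 RPKM in wild type, so its transcript was lower in all 3 of these libraries than in wild type. The s215 library went against its seedling label. The summed level of 5 root markers was 3.85 RPKM in s215, with CASP1 and EXPA7 at 0, and between 1391 and 1578 RPKM in the other 3 libraries. PYK10 made up most of those larger sums, at 1367 RPKM in m90, 1484 in atprmt5 and 1553 in wild type. In the same order IRT1 was at 4.62, 12.2 and 1.44 RPKM, EXPA7 at 1.79, 4.98 and 1.95, and CASP1 at 12.4, 9.72 and 15.4. Similar sums therefore hide differences between single root markers. The meristem genes STM and KNAT1 were both at 0 in s215, and their sum lay between 7.59 and 11.8 RPKM elsewhere. The summed level of 5 shoot markers was 8209 RPKM in s215 and between 24434 and 28705 RPKM in the others, and that of 3 flower markers was between 0.177 and 2.43 RPKM. The sum of 3 seed storage markers was 0.157 RPKM in m90, 0.289 in s215, 37.7 in atprmt5 and 163 RPKM in wild type. Fewer cells of a type and less RNA per cell cannot be told apart in such samples, and the part of these marker differences in any value below was not tested.

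Levels of the 8 genes ran from 3.51 RPKM (FY in m90) to 38.8 RPKM (FLK in s215), which rested on between 162 and 1471 reads per gene and library. In wild type FLK had the highest value, at 17.55 RPKM, followed by REF6, FVE, LD, FPA, FLD, FY and FCA, the last at 3.60 RPKM. The 95% counting intervals of neighbours in this order overlapped, except between LD and FPA and between FLD and FY. The order of neighbours that overlapped is therefore not settled. It also depends on the length behind each RPKM, and that of FCA was longer than any single annotated transcript. Brackets after a ratio give its 95% exact counting interval (Clopper-Pearson, conditional on the summed reads). These intervals cover counting error only, and they treat each read as a separate molecule. Reads that carry no molecular identifier need not stem from separate molecules, and where they do not, the intervals are too narrow. The intervals also do not hold the variation from plant to plant. A gene was counted as 2-fold different on the scale of log2((RPKM + 1)/(RPKM + 1)), which understates differences of genes with low values, among 18688 tested loci, whose mean over the 4 libraries reached 1 RPKM or more. All 8 members passed that minimum.

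**Figure D2:**
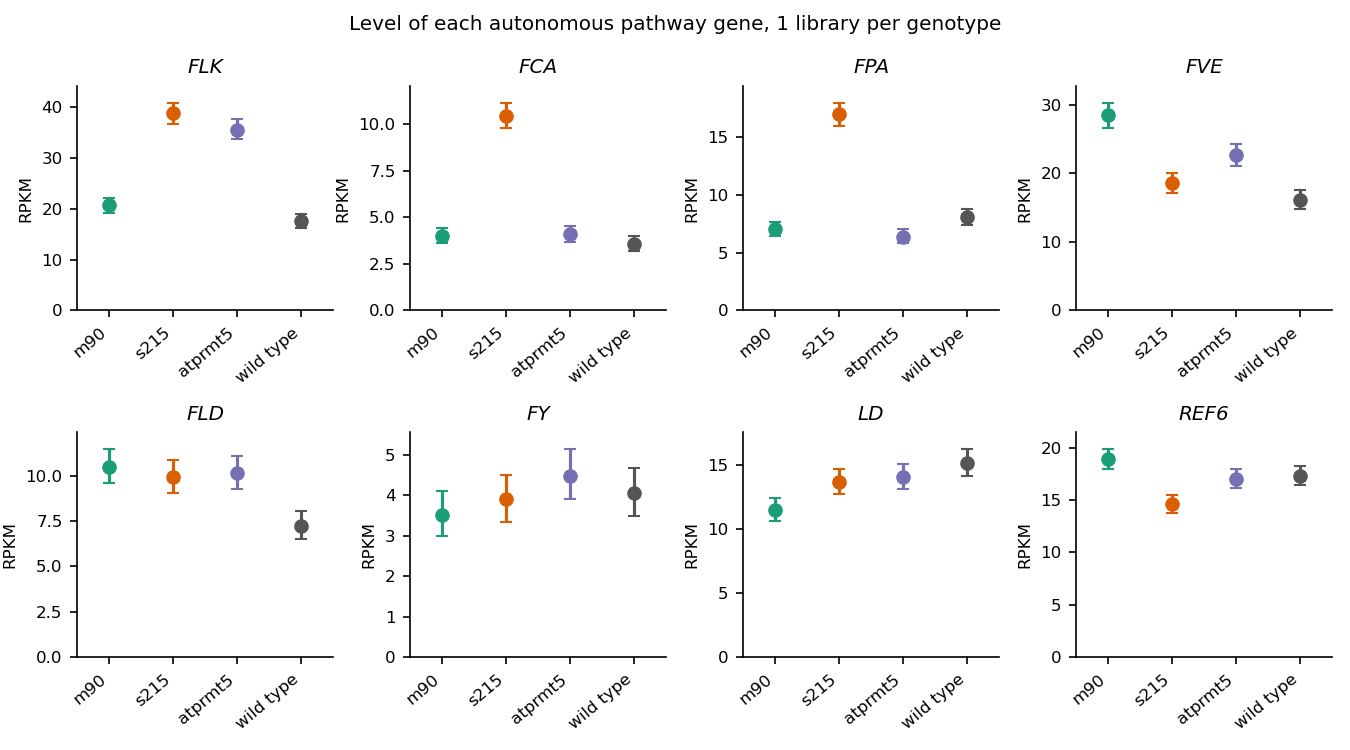
RPKM of each gene (y axes from 0, 1 panel per gene) in m90, s215, atprmt5 and wild type, with 95% counting intervals as bars and 1 library per point. FLK is high in s215 and atprmt5, FCA and FPA are high in s215 alone, and FY varies least.

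FLK, a protein with KH domains that binds RNA, separated the libraries into a high and a low pair. It was at 20.7 RPKM in m90, 38.8 RPKM in s215, 35.6 in atprmt5 and 17.55 RPKM in wild type. The m90 library lay near wild type, and s215 lay near atprmt5. The ratio of atprmt5 to wild type was 2.03 (1.84 to 2.24), and 1.90% of tested loci had a larger log2 ratio in that pair. On the scale with 1 added the log2 ratio was 0.98, just short of the 2-fold line. In m90 FLK was at 0.582 of atprmt5 (0.531 to 0.636), with 4.90% of tested loci lower still, and at 1.18 times wild type (1.06 to 1.31). The ratio of s215 to atprmt5 was 1.09 (1.01 to 1.18). The ratio of s215 to wild type was 2.21 (2.01 to 2.43), and in that pair 11.1% of tested loci had a larger log2 ratio.

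FCA, an RNA-binding protein with RRM domains that favours early polyadenylation of the antisense RNA of FLC, stood apart in s215. Its level was 4.003 RPKM in m90, 10.5 RPKM in s215, 4.11 in atprmt5 and 3.60 RPKM in wild type. Among m90, atprmt5 and wild type no neighbouring levels were separable at this depth, the ratio of atprmt5 to wild type being 1.14 (0.983 to 1.33) and that of m90 to atprmt5 0.974 (0.842 to 1.13). The s215 level was 2.91 times wild type (2.57 to 3.32) and 2.55 times atprmt5 (2.26 to 2.88). In the s215 and wild-type pair 8.38% of tested loci had a larger log2 ratio than the 1.32 of FCA.

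FPA, another RNA-binding protein with RRM domains that acts on FLC antisense RNA, was also highest in s215. It was at 7.04 RPKM in m90, 17.0 RPKM in s215, 6.40 in atprmt5 and 8.07 RPKM in wild type. FPA was lower in atprmt5 than in wild type, at a ratio of 0.792 (0.696 to 0.900). The m90 level was not separable from that of atprmt5 (interval of the ratio 0.964 to 1.26) and lay at 0.872 of wild type (0.768 to 0.987). The s215 level was 2.66 times atprmt5 (2.38 to 2.98) and 2.10 times wild type (1.90 to 2.34). FPA overlaps AT2G43400 on the opposite strand by 46 bases and AT2G09470, which is absent from the deposited values, by 412 bases, and whether reads were counted by strand was not stated. AT2G43400 itself was between 9.32 and 11.9 RPKM in the 4 libraries.

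FY, the WD-repeat protein of the polyadenylation machinery that binds FCA, varied least of the 8. Its level was 3.51 RPKM in m90, 3.89 RPKM in s215, 4.48 in atprmt5 and 4.05 RPKM in wild type. No neighbouring levels were separable, though the ends of the range were, m90 being at 0.783 of atprmt5 (0.634 to 0.966). FY was not high in s215, where its partner FCA was, the ratio of s215 to wild type being 0.962 (0.776 to 1.19), whose log2 value of -0.04 turned to 0.10 when centred on the median of all tested loci and to 0.08 with trimmed mean scaling.

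FVE, a WD-repeat protein of histone deacetylase complexes also called MSI4, was highest in m90. It was at 28.4 RPKM in m90, 18.5 RPKM in s215, 22.7 in atprmt5 and 16.1 RPKM in wild type, and every neighbouring pair in that order of levels had an interval that left out 1. The ratio of m90 to wild type was 1.76 (1.58 to 1.96), with 4.89% of tested loci having a larger log2 ratio. The ratio of atprmt5 to wild type was 1.40 (1.25 to 1.57) and that of m90 to atprmt5 was 1.25 (1.14 to 1.38). FVE was thus further from wild type in m90 than in atprmt5, whereas FLK was nearer.

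FLD, a homologue of the human histone demethylase LSD1, was lowest in wild type. It was at 10.5 RPKM in m90, 9.94 RPKM in s215, 10.2 in atprmt5 and 7.25 RPKM in wild type. Among the 3 libraries other than wild type no neighbouring levels were separable. Their ratios to wild type were 1.45 (1.26 to 1.67) for m90, 1.37 (1.19 to 1.58) for s215 and 1.40 (1.22 to 1.62) for atprmt5. FLD overlaps AT3G10405 on the opposite strand by 75 bases. That locus was at 37.7 RPKM in m90, 24.1 RPKM in s215, 37.6 in atprmt5 and 57.5 RPKM in wild type. It was highest in wild type, where FLD was lowest. It was lowest in s215, where FLD was not separable from its level in atprmt5 or m90.

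Chromosome 2 holds FVE (8455756 to 8459642, plus strand), chromosome 3 FLD (3229060 to 3232531, plus strand) and REF6 (17935256 to 17940792, plus strand), chromosome 4 LD (1123475 to 1128490, minus strand) and chromosome 5 FY (4326397 to 4331971, minus strand). LD, the homeodomain protein, was at 11.5 RPKM in m90, 13.7 RPKM in s215, 14.1 in atprmt5 and 15.2 RPKM in wild type. The m90 level was the lowest, at 0.842 of s215 (0.757 to 0.935), at 0.816 of the atprmt5 value (0.735 to 0.906) and at 0.757 of the wild-type value (0.683 to 0.840). Among the other 3 no neighbouring levels were separable, though the ends of their range were, s215 being at 0.899 of wild type (0.815 to 0.994). REF6, a JmjC demethylase of lysine 27 of histone H3, was at 18.9 RPKM in m90, 14.6 RPKM in s215, 17.1 in atprmt5 and 17.3 RPKM in wild type. The atprmt5 and wild-type levels of REF6 were not separable, at a ratio of 0.984 (0.911 to 1.06). The m90 level was highest, at 1.09 times wild type (1.01 to 1.18), and s215 lowest, at 0.855 of atprmt5 (0.789 to 0.927).

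**Figure D3:**
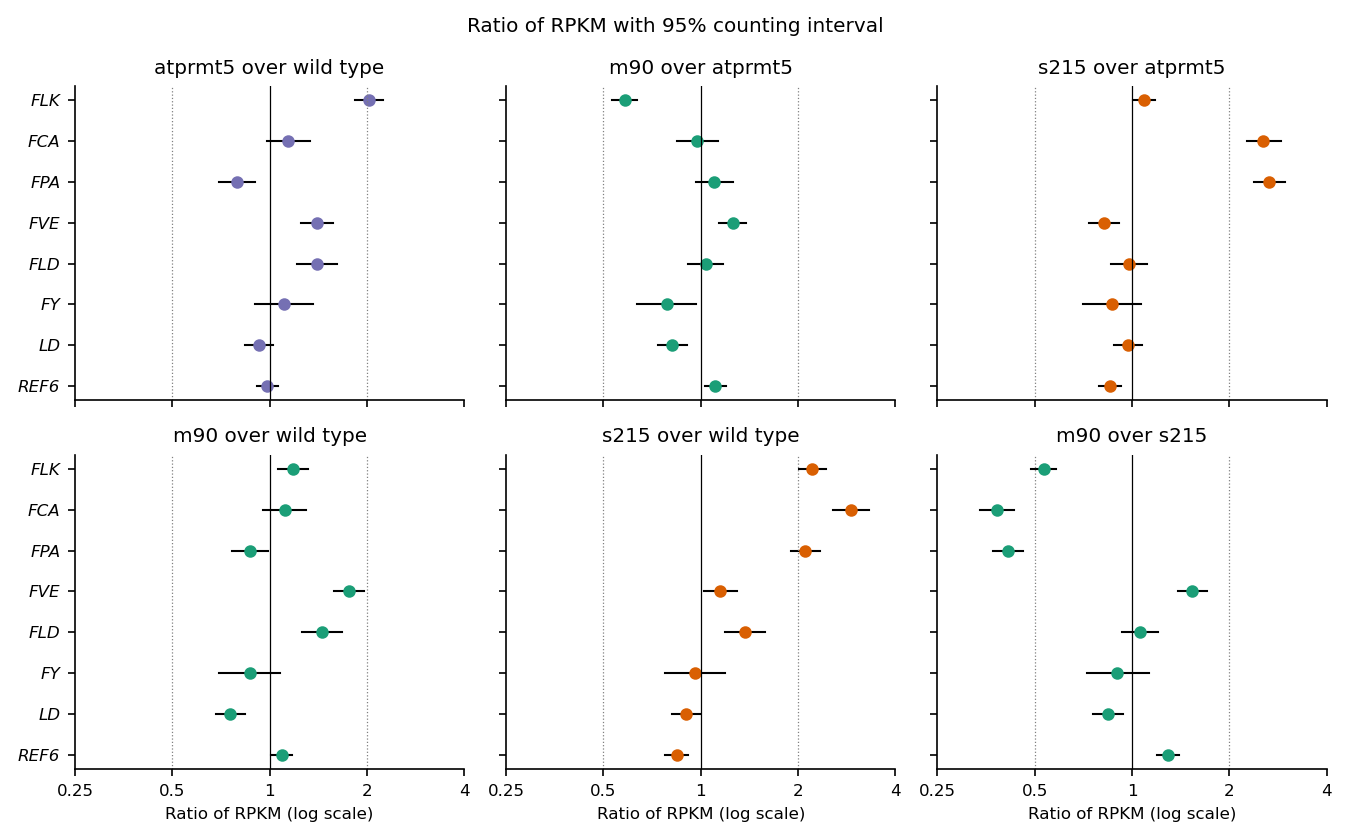
Ratio of RPKM (log axis) for each gene in 6 comparisons, with the 95% counting interval as a line and dotted lines at 0.5 and 2. FLK stands at 2.03 in atprmt5 over wild type and at 0.582 in m90 over atprmt5, while FCA and FPA stand above 2 in s215 over atprmt5 and over wild type.

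The first comparison asked how atprmt5 differed from wild type. On the scale with 1 added, 0 of the 8 genes lay past 2-fold upwards and 0 downwards, against 1.8% of tested loci higher and 3.32% lower. The interval lay above 1 for 3 genes (FLK, FVE and FLD), below 1 for FPA and spanned 1 for the other 4. The share of all tested loci whose interval left out 1 was not computed. Counts of intervals, here and in the comparisons below, therefore have no background beside them and are no result about the pathway. The median log2 ratio was 0.14, beside -0.0031 over all tested loci.

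The second comparison asked how m90 differed from atprmt5. Again 0 genes were 2-fold higher and 0 lower, where 3.63% of tested loci were higher and 2.34% lower. The interval lay above 1 for FVE and REF6 and below 1 for FLK, FY and LD. The median was 0.01, beside -0.04 over all tested loci. Against wild type, m90 likewise had 0 genes higher and 0 lower, beside 2.61% and 2.62% of tested loci, with a median of 0.12. The interval lay above 1 for FLK, FVE, FLD and REF6 and below 1 for FPA and LD. Both comparisons use the same m90 library.

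Comparisons with s215 had 2 genes past 2-fold each, in a setting where many loci were. Against atprmt5, FCA and FPA were higher and 0 genes lower, while 12.7% of tested loci were higher and 23.2% lower. Against wild type, FCA and FLK were higher and 0 lower, while 12.7% of tested loci were higher and 24.3% lower, and FPA fell just short at a log2 ratio of 0.99. The median of all tested loci was -0.15 in s215 against wild type, and that of the 8 genes was 0.30, with 5 intervals above 1 (FLK, FCA, FPA, FVE and FLD) and 2 below 1 (LD and REF6). With the values centred on the median of all tested loci, or with trimmed mean scaling, the log2 ratio of LD in that pair changed sign, to 0.0024 or 0.0060 in place of -0.14, and that of REF6 was -0.09 or -0.08 in place of -0.23. In m90 against s215, FCA and FPA were lower, at 0.382 (0.337 to 0.431) and 0.414 (0.371 to 0.461), and 0 genes higher, beside 25.2% of tested loci higher and 15.2% lower. FLK was at 0.534 of s215 in m90 (0.488 to 0.583). The share of tested loci past the line in either direction was 35.9% in s215 against atprmt5, 37% in s215 against wild type and 40.4% in m90 against s215, and counts of 2 of the 8 genes in these pairs are no result about the pathway. In the pairs without s215, FLK was the 1 member with a plain RPKM ratio of 2 or more, at 2.03 in atprmt5 against wild type. The share of all tested loci past 2 on plain ratios was not computed. On the scale with 1 added, 0 of the 8 genes passed in those pairs. The shares of tested loci past the line in either direction were 5.12% in atprmt5 against wild type, 5.98% in m90 against atprmt5 and 5.22% in m90 against wild type.

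**Figure D4:**
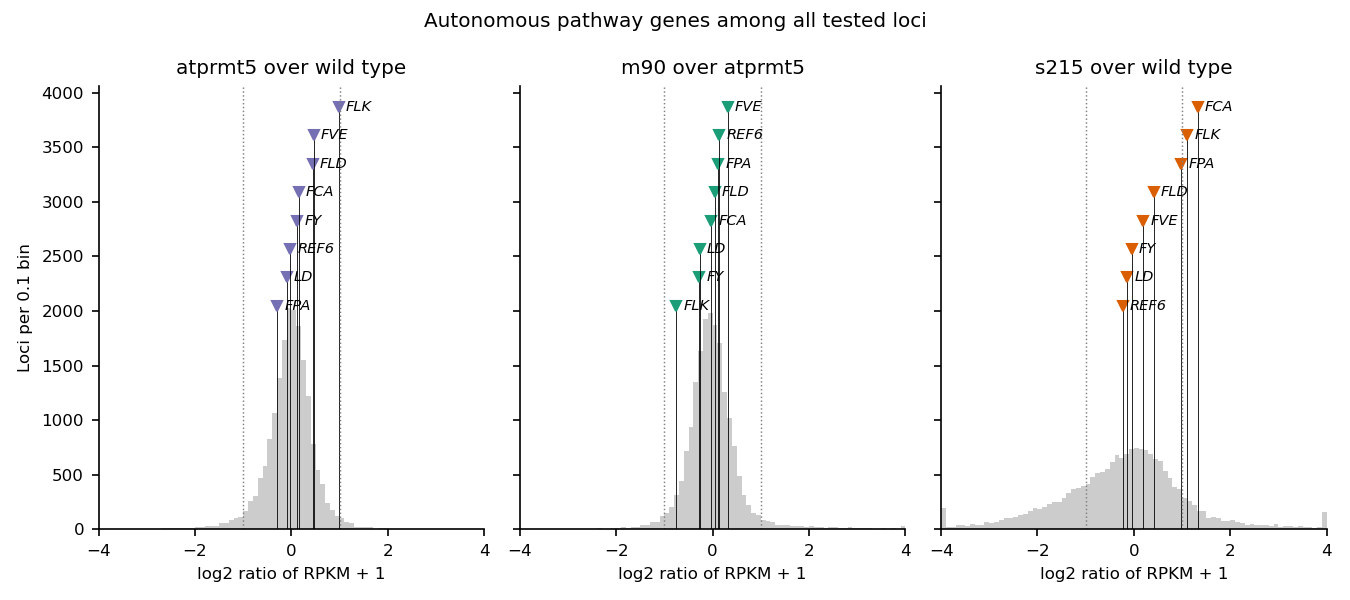
Histograms of the log2 ratio of RPKM + 1 over 18688 loci (bins of 0.1, values beyond 4 drawn at the edge), with the 8 genes marked at their own ratios at arbitrary heights and dotted lines at 2-fold. FLK lies at the right edge for atprmt5 over wild type (0.98) and towards the left for m90 over atprmt5 (-0.75), and the s215 histogram is much wider.

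FCA had the widest range of the 8 over the libraries, and loci with the nearest profile were sought among 13425 loci averaging 5 RPKM or more, by the distance between log2(RPKM + 1) profiles over the 4 libraries centred on their own means. The 5 nearest were EMB2820 (distance 0.048), AT1G13350 (0.059), the peptide:N-glycanase gene PNG1 (0.063), AT3G26115 (0.071) and AT3G63070 (0.075). EMB2820 was at 12.8 RPKM in m90, 31.3 RPKM in s215, 12.8 in atprmt5 and 11.8 RPKM in wild type, so it shared the high s215 value. FPA was the nearest of the other members, at 0.33, with 501 loci nearer. With s215 left out, or with Pearson correlation over all 4 libraries as the measure, 0 of these 5 were among the 5 nearest.

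Genes around the pathway were counted in 5 further lists, whose counts in s215 against wild type stand beside 12.7% of all tested loci higher and 24.3% lower. The shares higher and lower were 1.8% and 3.32% in atprmt5 against wild type and 3.63% and 2.34% in m90 against atprmt5. They were 2.61% and 2.62% in m90 against wild type. With shares this small, counts of 0 in lists of this size are no result about the lists. Of 11 close relatives of the members, 0 passed 2-fold in atprmt5 against wild type or in m90 against atprmt5, with list medians of 0.15 and -0.20 on the log2 scale. In s215 against wild type, HEN4, a KH-domain relative of FLK, was higher, at 18.1 RPKM in s215 against 6.70 RPKM in wild type. JMJ13, a relative of REF6, was lower, at 2.42 RPKM in s215 against 7.39 RPKM in wild type, as was MSI2, a relative of FVE, at 6.36 RPKM in s215 against 14.2 RPKM in wild type. PEP, another KH-domain relative of FLK, was at 19.5 RPKM in m90, 17.5 RPKM in s215, 17.7 in atprmt5 and 18.2 RPKM in wild type. It did not show the pattern of FLK, its ratio of atprmt5 to wild type being 0.971 (0.864 to 1.09).

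Of 13 tested factors of RNA 3′ end formation, 0 passed 2-fold in the pairs without s215, the list median being 0.17 in atprmt5 against wild type and 0.23 in s215 against wild type. In s215 FIPS5, a homologue of the yeast polyadenylation factor Fip1, was at 195 RPKM, against 64.2 RPKM in wild type. CSTF64, a cleavage stimulation factor, was next, at 13.9 RPKM in s215 against 6.59 RPKM in wild type, a log2 ratio of 0.98. Of 18 tested factors that lower FLC, 0 passed 2-fold in those pairs without s215, and the list median was 0.02 in atprmt5 against wild type and 0.38 in s215 against wild type. In s215 against wild type GRP7, a glycine-rich RNA-binding protein, was at 458 RPKM in s215 against 129 RPKM in wild type. VAL1, a B3 protein that recruits Polycomb proteins to FLC, was at 91.7 RPKM in s215 against 41.3 RPKM in wild type. CLF, a methyltransferase of lysine 27 of histone H3, was lower, at 3.41 RPKM in s215 against 8.37 RPKM in wild type.

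Of 26 factors that raise FLC, only ATXR7, a histone methyltransferase, passed 2-fold in atprmt5 against wild type, where 1.8% of all tested loci were higher and 3.32% lower. It was at 5.07 RPKM in m90, 10.3 RPKM in s215, 10.9 in atprmt5 and 4.79 RPKM in wild type, high and low in the same libraries as FLK. In s215 against wild type 2 of these 26 were higher and 0 lower, beside 12.7% of all tested loci higher and 24.3% lower. HUA2 was at 13.4 RPKM in s215 against 4.87 RPKM in wild type, and PIE1, the ATPase of a histone-exchange complex, at 17.4 RPKM in s215 against 6.87 RPKM in wild type. The list medians were 0.04 in atprmt5 against wild type and 0.42 in s215 against wild type.

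FLC, the target of the pathway, was at 0.467 RPKM in m90, 22.6 RPKM in s215, 3.28 in atprmt5 and 1.66 RPKM in wild type. It was 13.6 times wild type in s215 (9.34 to 20.1), the library in which FLK, FCA and FPA were highest. The ratio of atprmt5 to wild type was 1.97 (1.24 to 3.09). In m90 FLC was at 0.281 of wild type (0.118 to 0.609). The list of the FLC clade and its targets also held SVP, and 8 of its genes were tested. Of these 8, 5 were 2-fold higher in s215 than in wild type (FLC, MAF5, FLM, MAF3 and MAF4) and 0 lower. These counts stand beside 12.7% of all tested loci higher and 24.3% lower, and the list median was 1.42 beside -0.15 over all tested loci. In atprmt5 against wild type 0 were higher and 1, SOC1, lower, beside 1.8% and 3.32% of all tested loci. In m90 against atprmt5 0 were higher and 1, FLC, lower, beside 3.63% and 2.34% of all tested loci. SOC1, a promoter of flowering repressed by FLC, was at 34.97 RPKM in m90, 29.5 RPKM in s215, 19.5 in atprmt5 and 57.8 RPKM in wild type. FT, the mobile flowering signal, stayed under the minimum, at 0.131 RPKM in m90, 0 in s215, 0.0653 in atprmt5 and 1.15 RPKM in wild type.

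**Figure D5:**
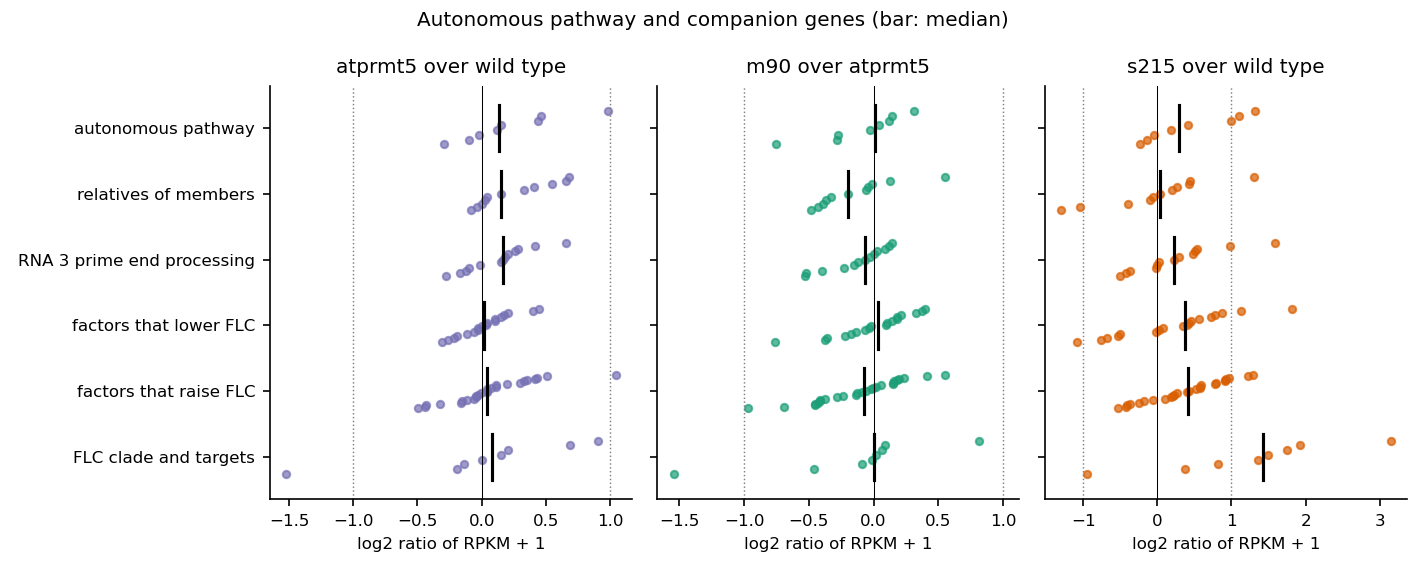
Log2 ratio of RPKM + 1 for each tested gene of the pathway and 5 companion lists in 3 comparisons, 1 point per gene, with the list median as a black bar, dotted lines at 2-fold and a separate x scale per panel. For s215 over wild type the FLC clade reaches 3.15 (FLC), and for atprmt5 over wild type the 1 gene past 2-fold among factors that raise FLC is ATXR7 at 1.04.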

How the data were processed

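RNA of 4 seedling libraries was sequenced, 1 per genotype. The authors deposited 1 table of RPKM values (reads per kilobase of locus, scaled to library size). Per the submitters' processing notes, TopHat2 2.0.11 and the build TAIR10 were used. How reads were counted is not given in the sources used here. Transcripts and sequences came from RefSeq TAIR10.1, and 24183 of 24288 loci matched a locus tag.

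In each library the commonest product of RPKM and annotated length gave the RPKM of 1 read. For each gene the smallest length was taken at which all 4 values came out as whole sequenced bases (100 per read, tolerance 0.0001), and reads followed from it. Ratios, intervals and profiles were computed with Python 3.11.15, scipy 1.17.1 and pandas 2.3.3, with a pseudocount of 1 for log2 ratios, a minimum mean of 1 RPKM and a 2-fold threshold. The steps were tested on simulated data. Samples were grouped by their genotype labels and 6 comparisons were made, none with a test. The members and lists were chosen with earlier results of these data known. All members were named; of each companion list, at most the 3 genes with the largest log2 ratio past 2-fold in a comparison; FLC, SOC1, FT and PRMT5; and of the loci nearest in profile to the member with the widest range, 5. PEP, CSTF64, MAF3, MAF4 and SVP were named outside this rule, after their values were seen. Alternatives were other pseudocounts, scalings, thresholds, filters and lengths.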

Additional observations from a re-analysis of the deposited data

How the results depend on the processing

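The number of genes past 2-fold changed with settings, FLK in atprmt5 against wild type (0.98) and FPA in s215 against wild type (0.99) lying next to the line. In atprmt5 against wild type it was 1 (FLK) with a pseudocount of 0.1, with upper quartile scaling and at 1.5-fold. With a pseudocount of 5 it was 0 in s215 against atprmt5, in s215 against wild type and in m90 against s215. In s215 against wild type it was 3, in place of 2, with a pseudocount of 0.1, centred on the median of all tested loci, with trimmed mean scaling and at 1.5-fold. At 1.5-fold it was 1 in m90 against atprmt5, 1 in m90 against wild type and 4 in m90 against s215. The cause was not tested, beyond the lower line at 1.5-fold and the smaller ratios that a larger pseudocount gives by construction. Shares of all tested loci at 1.5-fold, with other pseudocounts or with other scalings were not computed. The counts of genes at those settings are therefore no result about the pathway. LD in s215 against wild type changed sign, to log2 ratios of 0.0024 when centred on the median of all loci and 0.0060 with trimmed mean scaling. Under both of these settings 5 log2 ratios whose interval spanned 1 also changed sign: FY in s215 against wild type (0.10 and 0.08), FLD (0.09 and 0.11) and LD (0.08 and 0.10) in s215 against atprmt5, FLD in m90 against s215 (-0.02 and -0.03), and FCA in m90 against atprmt5 (0.0080 and 0.0025). That of REF6 in atprmt5 against wild type became 0.02 with upper quartile scaling. FLK in s215 against atprmt5, 0.12 as reported, was 0.24 when centred, 0.27 with trimmed mean scaling and 0.02 with upper quartile scaling. Whether an interval left out 1 was the same for all 48 ratios with annotated lengths. Leaving s215 out of the expression minimum, chosen after seeing the data, gave shares past 2-fold in either direction of 5.18% in atprmt5 against wild type, 6.04% in m90 against atprmt5 and 5.29% in m90 against wild type. No paired analysis was possible because each genotype had 1 library.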
